A study of Schizosaccharomyces pombe with 8 samples.

Results

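meiRNA is the long noncoding RNA made from the sme2 gene of the fission yeast Schizosaccharomyces pombe, and the deposited tables count it as a short isoform, SPNCRNA.103, and a long isoform, SPNCRNA.103L. Both were taken by name and make up 2 of the 6973 named features counted in each of 8 libraries. In every library the long isoform held more counts than the short one. The difference between them, called the distal part here, stands for reads that were counted for the long isoform and not for the short one. The short isoform, the long isoform and the distal part therefore share reads and are not independent measurements.

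During mitotic growth the YTH-family protein Mmi1 binds UNAAAC motifs in meiotic transcripts and directs them to the nuclear exosome for degradation. meiRNA carries many such motifs and is itself a target of this elimination. At the onset of meiosis, meiRNA assembles with Mei2, the RNA-binding protein that triggers the switch, at the sme2 locus, and the complex sequesters Mmi1 so that meiotic mRNAs escape degradation.

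The experiment asked which RNAs were bound by Mmi1 and Mei2 at the same time (seqRIP-seq). Cells that carried kanMX::Pnmt41-TAP-Mmi1 together with natMX::Pnmt1-3xFLAG-Mei2 were compared with control cells that carried kanMX::Pnmt41-GFP-Mmi1 together with natMX::Pnmt1-3xFLAG-Mei2, in which Mmi1 has no TAP tag for the first purification to hold. Both strains expressed Mmi1 from the mild nmt41 promoter and overexpressed 3xFLAG-Mei2 from the strong nmt1 promoter, so no library shows meiRNA at the normal level of Mei2 in mitosis. Cells grew exponentially in EMM minimal medium at 30 °C and were crosslinked with 0.2% formaldehyde, and RNA was sequenced from doubly purified material (IP) and whole cell extract (WCE) in biological duplicates, giving 2 libraries for each of the 4 combinations. Total counts ranged from 34415561 to 53703741 a library. Ribosomal RNA, depleted from the WCE only, made up 79.2 and 82.0% of IP counts with TAP-Mmi1, 96.4 and 96.0% of IP counts in the control, and 7.98 to 27.4% of WCE counts. The strains thus differed in how many IP counts remained for other RNAs.

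The RefSeq annotation of the genome (ASM294v3) places the long isoform at chrII:339346-340907 (1562 nt) and the short one at chrII:340399-340907 (509 nt), both on the minus strand with the same 5′ end. The deposited lists carry no coordinates, but they run by chromosome and by start position sorted as text: 97.4% of 6808 adjacent pairs of features followed that order, against 89.5% for a numerical order. By the nearest listed features, the counted long isoform started between positions 338327 and 338520 and the counted short isoform between 339169 and 339361. With the next nearest features these bounds widened to 338122 to 338580 and 339142 to 339390. A start position is the 3′ end on the minus strand. The annotated start of the long isoform lies 826 to 1019 nt above the counted one. The counted isoforms were therefore placed by the order of the lists, their 5′ ends were not known, and no value per nt of length was formed for them.

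The Mmi1 motif UNAAAC lay densest around the 3′ end of the counted short isoform, at 41.5 per kb between its bounds, compared with 13.9 per kb in the stretch that only the long isoform has and 10.3 per kb between the bounds for the end of the long isoform. Between the lowest possible start of the counted long isoform and the RefSeq 5′ end (2581 nt) there were 26 UNAAAC on the sense strand, counted with any overlap. Of these, 9 lay in the 648 nt at chrII:338521-339168 that belong to the long isoform only within the nearest bounds, and only 7 of 38798 windows of that length along the genome on either strand (0.0180%) held as many. Another 8 lay in the 193 nt between the bounds for the start of the short isoform, and their assignment to the short isoform or the distal part cannot be told apart from the order of the lists. The RefSeq span of the long isoform held 9 and that of the short isoform 1. The study reports more UNAAAC in meiRNA than this RefSeq span held. That span starts 826 to 1019 nt above the counted long isoform, and the span over which the study counted was not known here. Among windows of 1562 nt in the whole genome, the densest held 27 UNAAAC and lay at chrII:338077-339638 on the minus strand, across sme2 and the 5′ end of aga1. The next densest held 18 each and overlapped mug9, a meiotic mRNA, and gsf2.

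These 2 stretches of 300 nt show these motifs where the order of the lists places the short isoform and the part that only the long isoform has. The first runs upstream from the 3′ end of the counted short isoform at the upper of its nearest bounds, and lies inside that isoform if the latter is 301 to 493 nt long or more, depending on where between these bounds it starts. Within the wider bounds, up to 28 nt at the 3′ end of the stretch could lie outside it. These nt hold the UNAAAC that begin at chrII:339385 and chrII:339374, which then would not belong to the short isoform. The second was chosen as the densest 300 nt of the long-only stretch. Both are on the minus strand of ASM294v3, written 5′ to 3′ as DNA with each UNAAAC, its U written as T, in capitals. Each holds 6 UNAAAC, and 44.5% of all windows of this length hold at least 1 on the strand read, while 15 of 83810 (0.0179%) hold as many as 6. The second stretch was picked for its motifs and these windows were not, so the share does not measure its rarity.

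short isoform, chrII:339362-339661: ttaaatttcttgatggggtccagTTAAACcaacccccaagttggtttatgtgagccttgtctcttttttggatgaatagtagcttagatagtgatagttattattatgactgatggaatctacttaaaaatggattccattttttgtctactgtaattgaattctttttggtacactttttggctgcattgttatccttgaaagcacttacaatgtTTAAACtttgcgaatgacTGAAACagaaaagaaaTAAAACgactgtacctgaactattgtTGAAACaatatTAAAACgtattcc

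long isoform only, chrII:338623-338922: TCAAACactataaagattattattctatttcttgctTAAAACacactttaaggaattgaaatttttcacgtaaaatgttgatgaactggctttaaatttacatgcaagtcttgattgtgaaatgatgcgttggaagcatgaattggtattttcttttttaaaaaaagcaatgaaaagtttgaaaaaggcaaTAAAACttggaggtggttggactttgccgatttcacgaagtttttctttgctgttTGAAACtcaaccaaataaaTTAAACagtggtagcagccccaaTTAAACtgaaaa

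Motifs bound by Mei2 were less concentrated. The tetramer UUNG, where N was U, G or A, was counted on the sense strand with any overlap. It occurred 10 times in the first stretch and 8 times in the second, against a median of 5 in windows of this length. As many or more were held by 7.34% and 20.0% of windows respectively. Over the 648 nt that only the long isoform has there were 12, against a median of 11. A match to these letters describes the sequence and not an occupied site.

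**Figure D1:**
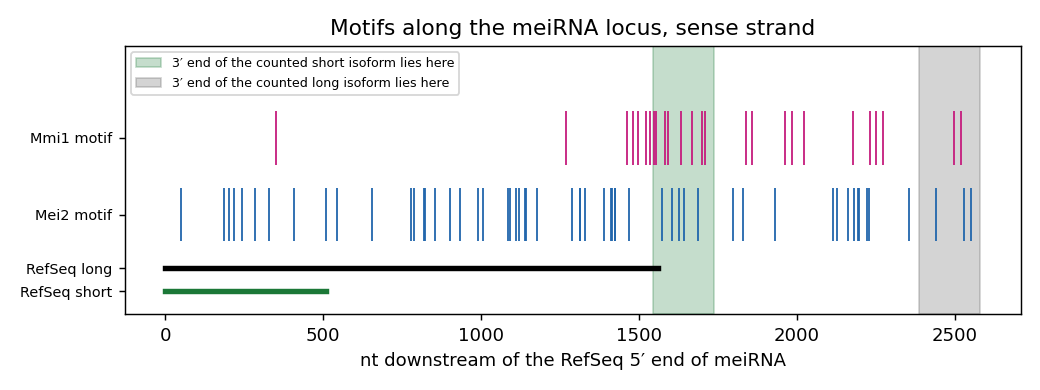
UNAAAC motifs (magenta) and UUNG motifs in which N is U, G or A (blue) on the sense strand, by distance in nt downstream of the RefSeq 5′ end of meiRNA. Bars give the RefSeq isoforms and shaded bands the ranges that hold the 3′ ends of the counted isoforms; 8 UNAAAC lie within the green band and 9 between the bands, while the RefSeq short isoform holds 1.

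In whole cell extracts both isoforms were abundant, and the cultures differed more than usual. With TAP-Mmi1 the WCE held 45595 and 26310 counts of the long isoform (replicates 1 and 2), and the control WCE held 22979 and 29386. For the short isoform these counts were 24657 and 14159 with TAP-Mmi1, compared with 12281 and 15662 for the control. In CPM, here counts scaled to the library total outside ribosomal RNA, the long isoform stood at 989 and 725 with TAP-Mmi1, and 685 and 912 in the control, so that the strains overlapped. Replicates of the same strain differed by 0.44 and 0.39 on the log2 scale after normalization. These gaps exceeded those of 94.6% and 97.3% of the 6827 features tested, whose median gaps were 0.09 and 0.06.

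Neither isoform was called different between the strains in the WCE. The fitted log2 difference (TAP-Mmi1 minus control, edgeR quasi-likelihood test) was 0.20 (SE 0.23) for the short isoform, 0.18 (SE 0.23) for the long isoform and 0.16 (SE 0.25) for the distal part. The adjusted p was 0.9996 for each, and 0.352% of all features were called in this comparison, 0.293% higher and 0.0586% lower. The direction was not stable. It turned to -0.051 for the short isoform and -0.063 for the long isoform when TAP-Mmi1 WCE replicate 1 was left out, and the long isoform stood at -0.0022 without the control WCE replicate 1. With 2 cultures a strain that spread as they did, a modest difference in meiRNA level was not detectable. In bulk samples such as these, fewer cells making an RNA and less of it per cell cannot be told apart.

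In the immunoprecipitates the strains separated widely. With TAP-Mmi1 the IP held 88283 and 60780 counts of the long isoform, whereas the control IP held 2114 and 2049. For the short isoform these counts were 56592 and 40476 with TAP-Mmi1, compared with 1281 and 1408 for the control. For the distal part they were 31691 and 20304 with TAP-Mmi1, compared with 833 and 641 for the control. All 3 were higher in both TAP-Mmi1 IP libraries than in any of the other 6 libraries, except that the second IP distal count (20304) lay just below the first WCE count (20938).

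**Figure D2:**
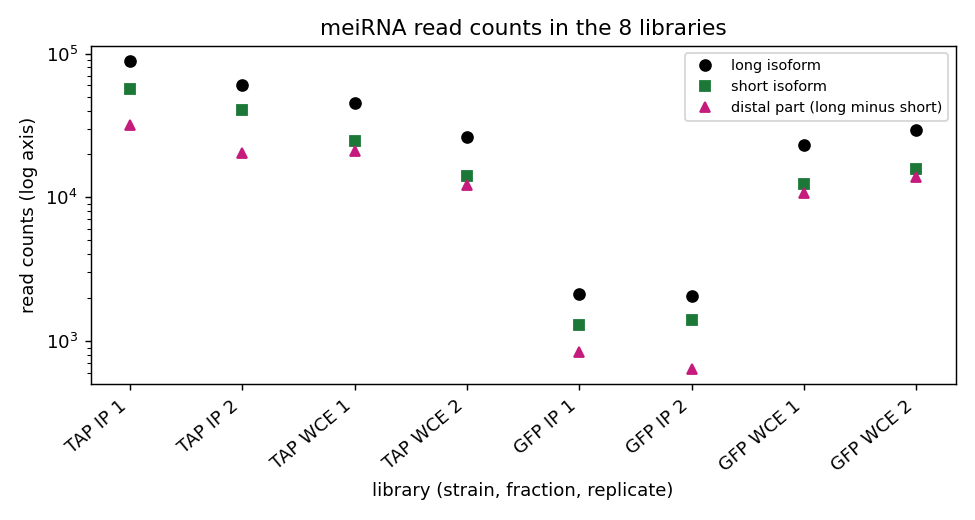
Read counts of the long isoform (circles), the short isoform (squares) and the distal part (triangles) in each of the 8 libraries, on a log axis and not adjusted for depth. The control IP libraries hold 2114 and 2049 counts of the long isoform, and the TAP-Mmi1 IP libraries 88283 and 60780.

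The ratio of IP to WCE counts of the same strain and replicate number, taken on the counts as deposited, gave the same separation. For the short isoform it was 2.30 and 2.86 with TAP-Mmi1 (2.58 ± 0.398, SD, n = 2) and 0.104 and 0.0899 in the control (0.0971 ± 0.0102). For the long isoform it was 1.94 and 2.31 with TAP-Mmi1 (2.12 ± 0.264) and 0.0920 and 0.0697 in the control (0.0809 ± 0.0157). For the distal part it was 1.51 and 1.67 with TAP-Mmi1 (1.59 ± 0.111) and 0.0779 and 0.0467 in the control (0.0623 ± 0.0220). The mean ratio was thus 26.5-fold higher than in the control for the short isoform, 26.3-fold for the long isoform and 25.6-fold for the distal part. These ratios are not scaled for the ribosomal share of each IP. The median feature was also higher with TAP-Mmi1 (0.141) than in the control (0.0284), so these folds are not particular to meiRNA in full. With TAP-Mmi1, the short isoform ranked 158 and the long isoform 190 among 6898 features by mean ratio, where the median feature stood at 0.141. Among the 1401 noncoding RNAs they ranked 52 and 67. In the control they ranked 377 and 461 of 6898 against a median of 0.0284, so meiRNA was also among the features best retained without a TAP tag.

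Both other lncRNAs that the study describes as bound by Mmi1 and Mei2 had higher ratios with TAP-Mmi1. mamRNA (UpsnoU14), the RNA upstream of snoU14, stood at 12.8 and 19.3 with TAP-Mmi1 (16.0 ± 4.64) and at 0.136 and 0.576 in the control. omt3 (SPNCRNA.130) stood at 5.94 and 8.10 with TAP-Mmi1 (7.02 ± 1.53) and at 0.0507 and 0.172 in the control. The control ratios of both spread over more than those of meiRNA, and the difference between these RNAs and meiRNA was not tested.

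**Figure D3:**
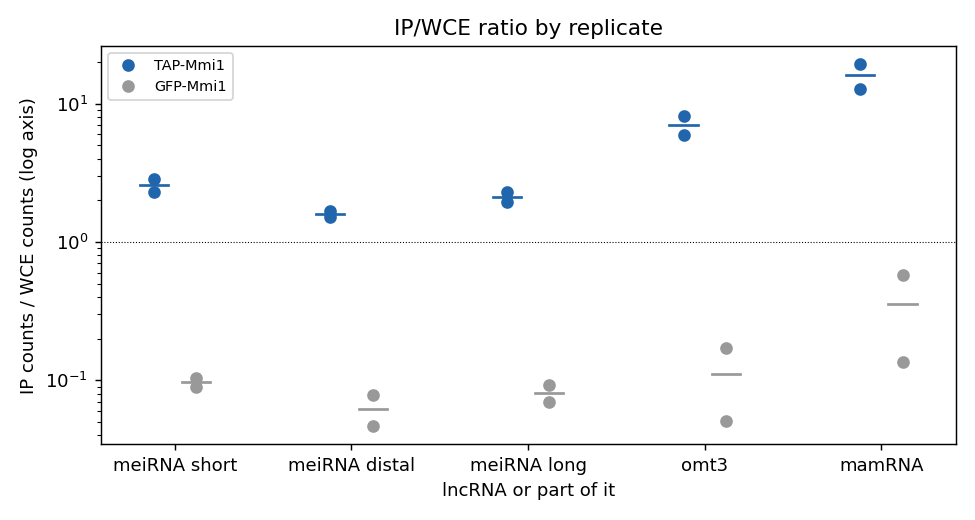
IP counts divided by WCE counts for each replicate (points) with the mean of 2 (lines), on a log axis, with TAP-Mmi1 in blue and the GFP-Mmi1 control in grey. Every TAP-Mmi1 point of meiRNA lies above 1, from 1.51 to 2.86, and every control point from 0.0467 to 0.104.

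Tested over all features, meiRNA was enriched in the TAP-Mmi1 strain beyond the control. The log2 enrichment over control, taken as the change from WCE to IP in the TAP-Mmi1 strain less the same change in the control, was 2.44 for the short isoform (SE 0.32, adjusted p = 0.000844, edgeR). It was 2.45 for the long isoform (SE 0.33, adjusted p = 0.000872) and 2.45 for the distal part (SE 0.36, adjusted p = 0.00133). These are 5.43-, 5.46- and 5.46-fold differences relative to the typical feature. All 3 passed, in a comparison in which 42.6% of 6827 features were called, 18.9% higher and 23.7% lower, so that the call alone does not set them apart. By size, 93.6% of features had a lower enrichment than either isoform. On library totals alone, where the ribosomal share of each IP enters, the value was 5.12 for the short isoform, the long isoform and the distal part, and the median of all features moved by 2.68. Leaving out each library in turn gave 2.18 to 2.80 for the short isoform and 2.16 to 2.81 for the long isoform.

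Within the TAP-Mmi1 strain, IP exceeded WCE by 4.20 on the log2 scale for the short isoform (SE 0.26, adjusted p = 8.44e-06). It did so by 3.93 for the long isoform (SE 0.26, adjusted p = 1.09e-05) and by 3.53 for the distal part (SE 0.27, adjusted p = 2.38e-05). All 3 were called in this comparison, as were 59.8% of all features, 29.1% higher and 30.7% lower. On library totals alone these values were 1.82, 1.55 and 1.15, with the median of all features moved by -2.36. In the control, IP also exceeded WCE relative to the typical feature, by 1.76 for the short isoform (SE 0.23, adjusted p = 0.00318), 1.48 for the long isoform (SE 0.23, adjusted p = 0.0062) and 1.08 for the distal part (SE 0.25, adjusted p = 0.0275), where 17.6% of features were called, 11.1% higher and 6.47% lower. On library totals alone these control values were -3.30, -3.57 and -3.97, with the median of all features moved by -5.05. The control call was lost without the control WCE replicate 1, at 1.45 (adjusted p = 0.0598) for the short isoform and 1.17 (adjusted p = 0.102) for the long isoform, and for the distal part without any of 5 libraries. The WCE groups enter both the within-strain values and the enrichment over control, so these values are not independent of each other.

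**Figure D4:**
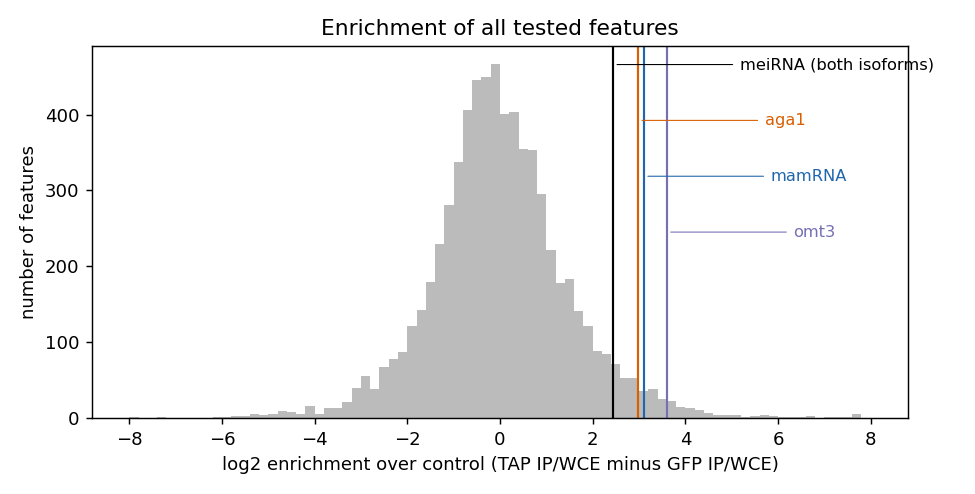
Distribution of the log2 enrichment over control among the features tested, in bins of 0.2, with vertical lines at meiRNA (2.44 and 2.45 for the short and long isoform), its neighbour aga1 (2.99), mamRNA (3.11) and omt3 (3.61). All lie in the upper tail, above the median of -0.05.

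The short isoform held a larger share of meiRNA counts in the IP than in the WCE, in both strains. With TAP-Mmi1, its counts were 64.1% (95% Wilson interval 63.8 to 64.4%) and 66.6% (66.2 to 67.0%) of the long isoform's in the IP, but 54.1% (53.6 to 54.5%) and 53.8% (53.2 to 54.4%) in the WCE. In the control the share was 60.6% (58.5 to 62.7%) and 68.7% (66.7 to 70.7%) in the IP, and 53.4% (52.8 to 54.1%) and 53.3% (52.7 to 53.9%) in the WCE. The intervals cover counting error only. All 4 IP libraries lay above all 4 WCE libraries. The WCE libraries spanned less than a percentage point while the control IP replicates differed by several.

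As a ratio of short to distal counts, which needs no scaling between libraries, the IP exceeded the WCE by 0.69 on the log2 scale with TAP-Mmi1 (0.92 ± 0.11 against 0.23 ± 0.01, SD, n = 2) and by 0.68 in the control (0.88 ± 0.36 against 0.19 ± 0.01). The mean shift over both strains was 0.69, with p = 0.0556 in an exact two-sided permutation test of the IP and WCE labels within each strain, the smallest p that its 36 arrangements allow. Within either strain alone the exact test cannot go below p = 0.333, which it gave. The shift was 0.56 to 0.81 when each library was left out. With the spread taken from all features (edgeR diffSpliceDGE), the difference between the short isoform and the distal part gave an adjusted p = 0.142 in the TAP-Mmi1 strain and an adjusted p = 0.142 in the control, adjusted over the 1 gene tested. The shifts of the strains differed by 0.0044, and the same edgeR test on the enrichment over control gave a difference of -0.01 with an adjusted p = 0.987. The shift toward the region counted for the short isoform thus appeared in the pulldown without a TAP tag too, where the IP replicates spread most (SD 0.36). Reads of long transcripts can be counted in that region, so the shift does not give the amount of short molecules. IP and WCE libraries also differed in ribosomal RNA depletion and in rRNA share, and the part of these in the shift was not tested.

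**Figure D5:**
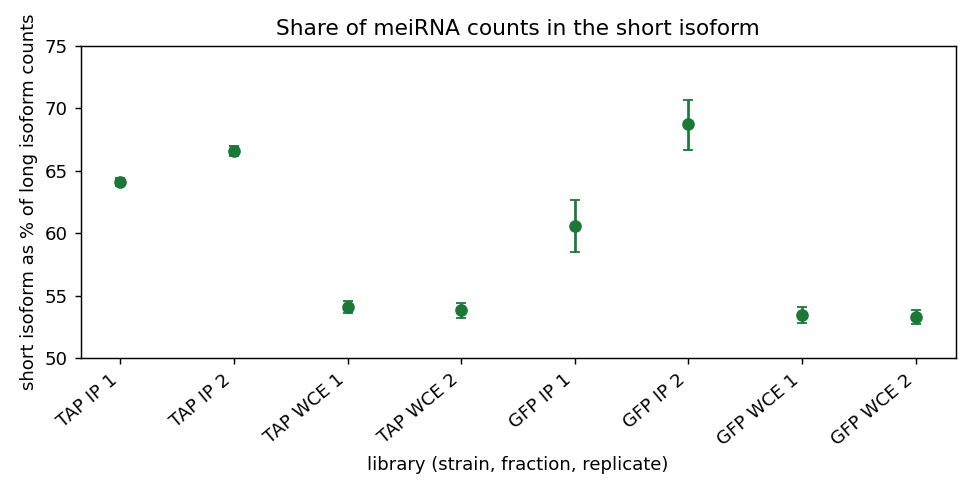
Counts of the short isoform as a percentage of those of the long isoform in each library, with 95% Wilson intervals (bars), on an axis that starts at 50%. The 4 IP libraries lie between 60.6 and 68.7%, and the 4 WCE libraries between 53.3 and 54.1%.

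The gene next to the 3′ side of meiRNA was enriched as well. aga1 (SPBC1271.14, chrII:336351-338280, minus strand), annotated as a glutamate N-acetyltransferase, ends its 5′ side 46 to 239 nt from the nearest bounds for the counted long isoform, and inside the wider ones. With TAP-Mmi1 it reached 24916 and 21685 IP counts against 6204 and 4142 WCE counts. In the control it reached 305 and 608 IP counts against 3848 and 3986 WCE counts. The mean IP/WCE ratio was 4.63 with TAP-Mmi1 and 0.116 in the control, and the log2 enrichment over control was 2.99 (adjusted p = 0.0011, edgeR). Its 1930 nt hold 2 UNAAAC (1.04 per kb), compared with 13.9 per kb in the stretch that only the long isoform has. Whether reads counted for aga1 come from transcripts that start within meiRNA was not tested, since the tables give no positions of reads.

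The other neighbouring mRNAs were not called by edgeR in the enrichment over control. On the far side of aga1, mti2 (SPBC1271.15c) had a log2 enrichment of 1.24 (adjusted p = 0.0632, edgeR). Within the TAP-Mmi1 strain, mti2 was called higher in the IP than in the WCE (1.73, adjusted p = 0.00199, edgeR). The span of mti2 (chrII:334066-336676, plus strand) overlaps that of aga1. On the 5′ side, osh41 (SPBC1271.12), an oxysterol-binding protein gene, stood at 0.01 (adjusted p = 0.972) and pet802 (SPBC1271.11), which encodes an S-adenosylmethionine transporter, at -0.77 (adjusted p = 0.218). mrpl8 (SPBC1271.13), a mitochondrial ribosomal protein gene that overlaps the RefSeq span of meiRNA, stood at -0.73 (adjusted p = 0.0793). DESeq2 called mti2 higher (adjusted p = 0.0306) and mrpl8 lower (adjusted p = 0.036). SPNCRNA.1342, the antisense RNA within that span, was called higher (3.41, adjusted p = 0.0307) on 54 and 72 IP counts with TAP-Mmi1 and 3 and 0 in the control. The counting does not appear to separate strands: for 157 antisense features that lie inside a single mRNA, counts per nt were within 1 log2 unit of the mRNA's in 89.2%. Reads of SPNCRNA.1342 and of meiRNA therefore cannot be told apart where their spans overlap. If strands were not separated and a read could enter several features, each such read would also count for SPNCRNA.1342. That feature held at most 93 counts in any library, and the long isoform at least 2049. The overlap is taken from the RefSeq span, and the 5′ ends of the counted isoforms were not known. Whether the counted isoforms reach SPNCRNA.1342 therefore cannot be told, and where the reads counted for meiRNA lay was not tested.

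Other transcripts of the same pathway were read from lists chosen from the study and textbook knowledge. All 10 meiotic mRNAs targeted by Mmi1 were called higher in the enrichment over control, where 18.9% of all features were, with a median log2 value of 4.11 (2.15 to 4.91) against -0.05 for all features. They included mei4, a meiotic transcription factor (3.98), ssm4, a dynactin component needed for nuclear movement in meiosis (4.26), rec8, the meiotic cohesin (3.12), and spo5, an RNA-binding protein of meiosis and sporulation (2.15). Both isoforms of meiRNA lay below 9 of the 10 and above 1, spo5, by differences that were not tested. The study ascribes the pulldown of several such mRNAs most likely to ectopic binding by the overexpressed Mei2. mamRNA (3.11, adjusted p = 0.0177) and omt3 (3.61, adjusted p = 0.00577) were both called higher, and the study chose them on these libraries.

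The mRNAs of protein factors were called higher about as often as all features, of which 18.9% were called higher and 23.7% lower. Of 8 genes for Mei2, Mmi1 and regulators of Mei2, edgeR called 1 higher (erh1, the partner of Mmi1, 2.31, adjusted p = 0.0107) on 9 and 3 counts in the control IP. It called 4 lower, namely mei2 (-3.01), pat1, the kinase that inhibits Mei2 (-1.25), ste11, the transcription factor of sexual differentiation (-0.95), and tor2, a kinase that promotes growth (-0.72). For mei2, IP exceeded WCE by 0.80 with TAP-Mmi1 (adjusted p = 0.14, edgeR) and by 3.81 in the control (adjusted p = 0.00238, edgeR). The low mei2 value thus came with a high control IP and not with an IP below WCE. The same differences with TAP-Mmi1 and in the control were -0.62 and 0.63 for pat1, -0.86 and 0.09 for ste11, and -0.65 and 0.07 for tor2. Not called by edgeR were mmi1 (2.40, adjusted p = 0.0572), mei3 (1.59, adjusted p = 0.053), which encodes the inhibitor of Pat1, and mot2 (0.31), which encodes a ubiquitin ligase of the Ccr4-Not complex. DESeq2 called mmi1 (adjusted p = 0.0105) and mei3 (adjusted p = 0.00193) higher, and so did edgeR with TMM factors computed without rRNA (adjusted p = 0.049 and 0.0395). On library totals alone, pat1 (1.44), ste11 (1.73) and tor2 (1.97) were positive and mei2 stood at -0.30, with the shift of 2.68 in the median of all features. mei2 and mmi1 are the genes under the nmt promoters. Of 6 nuclear RNA elimination factors, edgeR called 1 higher, red1, which works with Mmi1 in degradation (1.64), and did not call mtl1, pab2, rrp6, dis3 and pla1. DESeq2 also called pab2 higher (0.66, adjusted p = 0.0455). In the WCE comparison between strains, edgeR called 0 of these 26 listed features, with 3 at an unadjusted p under 0.05, and DESeq2 called 1 (pat1, 0.57, adjusted p = 0.0133).

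The features whose levels moved most like the long isoform over the 8 libraries (Pearson r of log2 CPM with TMM factors, 5128 features with a mean WCE count of at least 1000) were SPNCRNA.388 (r = 0.994), iss10, a factor in meiotic mRNA elimination (0.993), SPCC594.03, an uncharacterized protein gene (0.993), pex16, a peroxisome biogenesis gene (0.992), and byr2, a MAP kinase kinase kinase gene (0.992). These correlations are descriptions over 8 libraries that share their strains and fractions, and 4.64% of features had an r above 0.95. SPNCRNA.388, a noncoding RNA, reached 14054 and 9330 IP counts and 7555 and 5736 WCE counts with TAP-Mmi1, against 344 and 273 IP counts and 3591 and 4432 WCE counts in the control. Ranked by Spearman's rho, 0 of these 5 stayed among the nearest 5.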

How the data were processed

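The authors deposited raw read counts of annotated features, as whole numbers without normalization, with a file for each of the 8 seqRIP-seq libraries. Reads were demultiplexed with bcl2fastq 2.18.12, trimmed with cutadapt 1.15 and aligned with Bowtie2, per the labels, and counted with MulticovBed. The genome build, the annotation and the strand setting of the counting were not given in the sources used here. A read that overlaps both isoforms can enter the counts of each. Groups and replicate numbers came from the sample labels, which call the replicates biological duplicates.

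The unnamed entry (1 in each file, 0.00177 to 0.0552% of counts) was left out. Counts of the short isoform were subtracted from those of the long one to give the distal part, which was added as a derived feature. All 8 libraries were fitted as 4 groups with edgeR 4.0.16 (R 4.3.3), using TMM factors, filterByExpr by group, the quasi-likelihood F-test with robust estimation, and Benjamini-Hochberg adjustment over 6827 features. Calls were made at an adjusted p under 0.05. Standard errors are the size of the log2 difference divided by the root of F. TMM values are relative to the typical feature of a library. Shares have 95% Wilson intervals (scipy 1.17.1), and short against distal was tested by exact permutation and by diffSpliceDGE, since 2 libraries a group limit any exact test. IP and WCE of 1 strain and number were taken as 1 culture by a reading of the protocol, which the labels do not state. The replicate differences of IP and WCE over all features correlated by 0.09 with TAP-Mmi1 and 0.03 in the control. Alternatives were library totals, TMM without rRNA, no filter, no derived feature, DESeq2 1.42.0, replicate blocks and each library left out.

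Named are both isoforms and the distal part, features that overlap the RefSeq span of meiRNA, the 2 nearest listed on each side, the 5 most like the long isoform, members of 4 short lists, and mamRNA and omt3. gsf2 was named after its motif count was seen. The members, lists and tests were chosen with earlier results of these data known. Motifs were counted and sequences read by Python 3.11.15 from the RefSeq assembly ASM294v3.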

Additional observations from a re-analysis of the deposited data

Results flagged for a closer look

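The IP/WCE difference of meiRNA was not the same in the TAP-Mmi1 and GFP-Mmi1 strains. Tested as an interaction between strain and fraction, the strains differed by 2.44 on the log2 scale for the short isoform, 2.45 for the long isoform and 2.45 for the distal part (edgeR adjusted p = 0.000844, 0.000872 and 0.00133). Both replicates with TAP-Mmi1 had a higher ratio than both control replicates in each case. The 3 values share reads, and with 2 libraries a group, single libraries that stand apart could be looked for only by leaving each out. The enrichment was then 2.18 to 2.80 (short isoform), 2.16 to 2.81 (long isoform) and 2.09 to 2.81 (distal part).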

How the results depend on the processing

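With 2 cultures a strain, exact tests could not reach 0.05, and unknown lengths of the counted isoforms meant that the planned comparison of counts per nt was not run. The enrichment over control and the TAP-Mmi1 IP/WCE difference of both isoforms and the distal part kept their direction and call in every alternative run. For the enrichment, the adjusted p ranged from 9.80e-12 to 0.00527 (short isoform), 6.94e-12 to 0.00548 (long isoform) and 1.12e-09 to 0.00765 (distal part). Except where stated here, the cause of a change was not tested.

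On library totals alone, where the ribosomal share of each IP enters, the control IP/WCE difference turned to -3.30 (short isoform), -3.57 (long isoform) and -3.97 (distal part), and the WCE difference between strains to -0.046, -0.063 and -0.082. Features called higher and lower were then 6114 and 32 (from 1291 and 1617) for the enrichment, 270 and 5785 (from 1988 and 2094) for TAP-Mmi1 IP/WCE, 51 and 6707 (from 759 and 442) for control IP/WCE, and 12 and 7 (from 20 and 4) for the WCE. DESeq2 called 933 lower in control IP/WCE, and 267 higher and 104 lower in the WCE.

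Under a replicate block for culture, the enrichment was 2.43 (short isoform), 2.43 (long isoform) and 2.42 (distal part), and control IP/WCE had 270 features called lower. With the replicate number as a block, 2 were called lower in the WCE. The blocks changed no other call of meiRNA. For the short share, the replicate block over 4 cultures gave 0.69 with an exact p = 0.125, the smallest of its 16 sign changes.

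Leaving out each library in turn gave control IP/WCE values of 1.45 to 1.87 (short isoform), 1.17 to 1.55 (long isoform) and 0.76 to 1.21 (distal part), and WCE differences of -0.051 to 0.40, -0.063 to 0.38 and -0.077 to 0.37. Features called higher and lower ranged from 865 to 1761 and 934 to 1910 for the enrichment, 1279 to 2425 and 1620 to 2479 for TAP-Mmi1 IP/WCE, 147 to 1085 and 41 to 992 for control IP/WCE, and 1 to 53 and 0 to 16 for the WCE, where 215 to 1120 had an unadjusted p under 0.05 (edgeR). With the short isoform as reference, 2 of the 5 features most like meiRNA were shared, and 0 by Spearman's rho.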
